A study of Gallus gallus with 8 samples.

Results

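The comparison set the ungrafted area opaca of chick embryos against the central epiblast of embryos that had not yet formed a primitive streak. Messenger RNA of both tissues was sequenced in 1 library each, in the same laboratory per the labels. The members are the genes that reached 5 CPM (the count of a gene per 1000000 counts of its library) in at least 1 of these libraries, 9482 of the 17329 genes in the deposited count table. The central epiblast was dissected at stage EGKXII/XIII. The area opaca came from HH4 embryos (Hamburger and Hamilton stage 4) that carried a graft of Hensen's node in the area opaca of the other side for 5 hours, so that no embryo of this library was ungrafted as a whole. The series also holds 1 library each of the node-grafted area opaca from those embryos, of the anterior pre-streak epiblast, and, at HH6/7, of the neural plate, the anterior and posterior preplacodal regions and the non-neural head ectoderm. The last 3 came from a second laboratory. No genotype, strain or sex is named in the labels, and the number of embryos behind a library is not given in the sources used here.

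The area opaca is the outer, extraembryonic ring of the chick blastoderm. Its epiblast spreads over the yolk and later contributes ectoderm to extraembryonic membranes such as the yolk sac and chorion. This epiblast does not form embryonic tissue unless it receives signals such as those of the node. The node is an organiser that lies where the primitive streak ends anteriorly. The central pre-streak epiblast is the sheet from which embryonic ectoderm, mesoderm and endoderm arise, and it expresses the pluripotency factors NANOG and POUV (the chick relative of OCT4). BMP signalling through SMAD proteins favours non-neural ectoderm with its GATA, DLX, MSX and TFAP2 factors, whereas FGF, NODAL and WNT signals drive the primitive streak and its mesoderm.

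Library totals were 14573663 counts in the ungrafted area opaca and 100147917 in the central epiblast, and between 13053810 and 138666339 in the other 6. For log2 ratios and fold changes, a count of 0 was set to a floor of 3 counts. The floor is 0.206 CPM in the ungrafted area opaca and 0.0300 CPM in the central epiblast. With 1 library per group there is no spread between replicates and no test. The range given with a fold change is the exact 95% interval of the ratio of CPM values and covers counting error only. Where 2 levels are set against each other with no library named, the first is that of the ungrafted area opaca and the second that of the central epiblast. Calls of higher or lower required a ratio of 2 or more between the libraries and 5 CPM or more in the higher one. Stage, region, the node graft carried on the other side for 5 hours and the set of libraries differ together between the tissues. They cannot be told apart, nor can fewer cells of a type and less RNA per cell.

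Both area opaca libraries stood apart from the pre-streak libraries in how levels went with gene length, which bears on the counts below. Lengths were those implied by the deposited counts and FPKM values of the neural plate library, for 8990 members. A length needed an Ensembl identifier and, in that library, at least 50 counts and an FPKM above 0.5. Genes at very low levels in the neural plate, such as SLC5A1, AQP5 and ELF5, therefore have none. Of the genes called higher below, 1234 had a length, and of those called lower, 906. From the shortest to the longest of 10 equal length classes, the median log2 ratio of ungrafted over central ran from -0.45 to 0.42. The share of genes called higher went from 6.45% in the shortest class to 23.8% in the longest, and the share called lower from 25.4% to 3.56%. The median length was 3078 bp among genes called higher, 1344 bp among genes called lower and 2257 bp among all. The node-grafted over central ratio ran from -0.47 to 0.50 and the anterior over central ratio from 0.01 to -0.06; these share the central library. The part of length in each gene's ratio was not tested. Some gene lists below are also given a median of ratios centred on genes of like length. It covers only the members with 5 CPM and a length, and is set beside the uncentred median of the same genes. Over the same genes, centring changed the sign of the median in 5 of 45 lists. It went from -0.19 to 0.05 for retinoic acid, from 0.08 to -0.24 for germ cell markers, from -0.30 to 0.03 for ribosomal proteins, from -0.10 to 0.15 for oxidative phosphorylation and from -0.09 to 0.36 for histones.

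**Figure D1:**
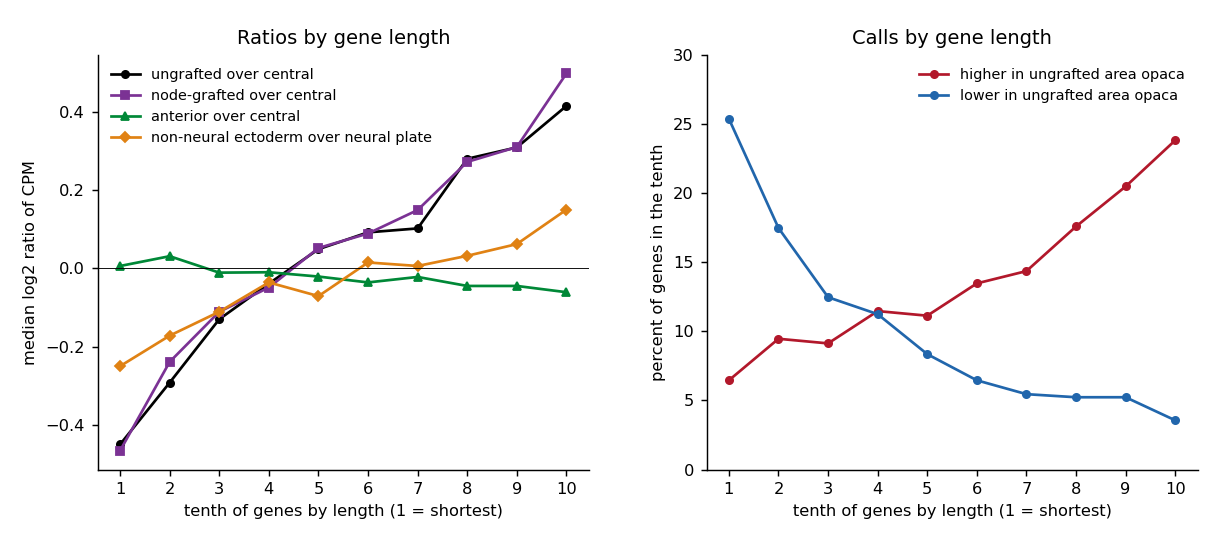
Left, the median log2 ratio of CPM in each of 10 length classes of 899 genes for 4 ratios, the first 3 of which share the central pre-streak library; right, the percent of genes in each class called higher (red) or lower (blue) in the ungrafted area opaca. Both area opaca lines climb from about -0.45 at the shortest genes to above 0.4 at the longest, while the anterior line stays near 0.

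Of the 9482 genes, 1411 (14.9%) were called higher in the ungrafted area opaca and 985 (10.4%) lower, together 25.3%. The median log2 ratio was 0.05. A ratio of at least 4 was reached by 353 genes higher and 237 lower, and a ratio of at least 10 by 77 higher and 54 lower. All 1411 higher genes had at least 1 count in the central library, and 2 lower genes had none in the ungrafted area opaca. The counting interval left out a ratio of 1 for 8215 genes. At the edge of the member rule, the highest level outside it was 4.99 CPM and the lowest inside 5.01 CPM, with 307 genes from 4 to 5 CPM and 308 from 5 to 6 CPM. Around the ratio of 2, 600 genes lay between 1.8 and 2 and 422 between 2 and 2.2.

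**Figure D2:**
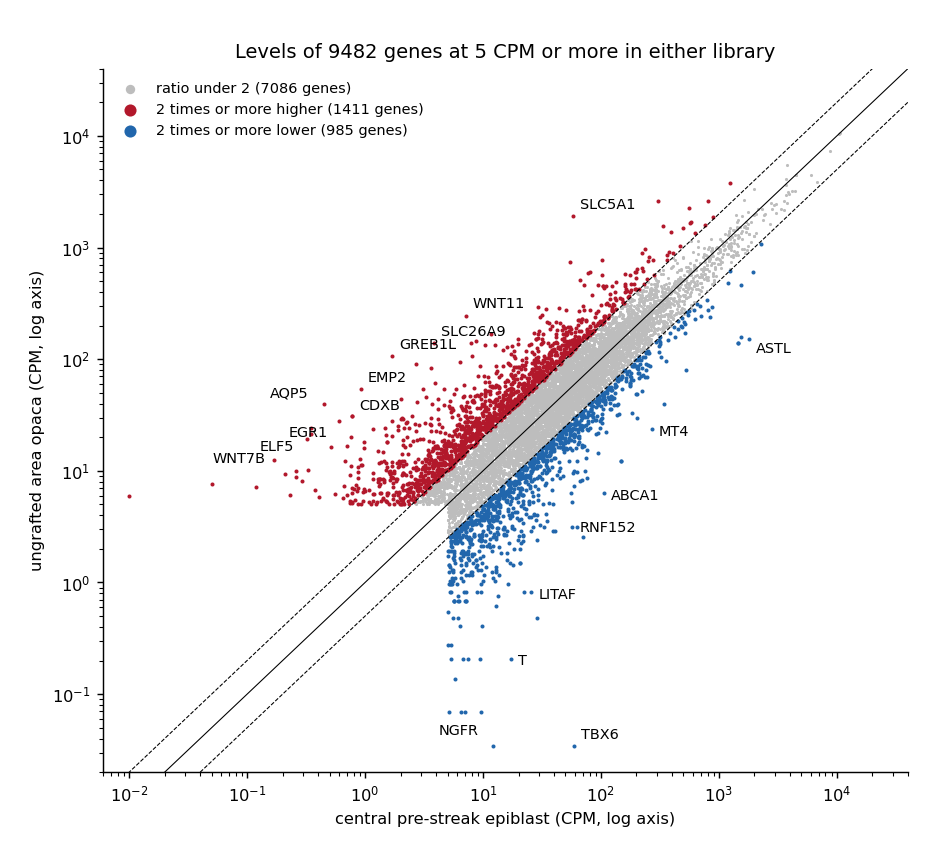
Each point is a gene, with its CPM in the central pre-streak epiblast on the horizontal and in the ungrafted area opaca on the vertical log axis; genes without an ungrafted count are drawn below the level of 1 count, the solid line marks equal levels and the dashed lines a ratio of 2. SLC5A1, WNT11 and AQP5 stand far above the diagonal, and ASTL, ABCA1, T and TBX6 far below it.

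The genes highest in the ungrafted area opaca included membrane transporters, secreted WNT ligands and genes of epithelia. AQP5 (ENSGALG00000002720), a water channel, was at 39.3 CPM in the ungrafted and 1.30 CPM in the node-grafted area opaca, 0.449 CPM in the central and 0 CPM in the anterior pre-streak epiblast, 0.00910 CPM in the neural plate, 0.364 and 0.180 CPM in the anterior and posterior preplacodal regions and 7.19 CPM in the non-neural ectoderm. It was 87.5-fold higher (64.5 to 121), and apart from the ungrafted area opaca only the non-neural ectoderm exceeded 2 CPM. SLC5A1 (ENSGALG00000006728), the sodium-coupled glucose transporter of gut and kidney, was at 1898 CPM in the ungrafted and 179.9 CPM in the node-grafted area opaca, 57.4 CPM in the central and 3.5 CPM in the anterior pre-streak epiblast, 1.04 CPM in the neural plate, 45.3 and 83.1 CPM in the anterior and posterior preplacodal regions and 826 CPM in the non-neural ectoderm. It was 33.1-fold higher (32.1 to 34.0), with the ungrafted area opaca highest, the non-neural ectoderm next and the neural plate lowest. The chloride transporter SLC26A9 was at 139.8 against 3.85 CPM (ENSGALG00000000745) and 36.3-fold higher (32.5 to 40.5).

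WNT11 (ENSGALG00000000839), a secreted ligand of the planar polarity branch of WNT signalling, was at 246 CPM in the ungrafted and 2.83 CPM in the node-grafted area opaca, 7.11 CPM in the central and 0.521 CPM in the anterior pre-streak epiblast, 2.10 CPM in the neural plate, 4.93 and 5.69 CPM in the anterior and posterior preplacodal regions and 93.6 CPM in the non-neural ectoderm. It was 34.6-fold higher (31.9 to 37.5), and the non-neural ectoderm was the second library above 10 CPM. WNT7B, another secreted WNT, was at 12.6 against 0.170 CPM and 74.0-fold higher (45.0 to 129.8). ELF5 (ENSGALG00000007811), an ETS transcription factor that in mouse is needed for the trophoblast lineage, was at 19.4 CPM in the ungrafted and 0.230 CPM in the node-grafted area opaca, 0.320 CPM in the central and 0 CPM in the anterior pre-streak epiblast, 0 CPM in the neural plate, 0.0104 and 0.00721 CPM in the anterior and posterior preplacodal regions and 3.83 CPM in the non-neural ectoderm. It was 60.8-fold higher (42.1 to 90.6), and outside the ungrafted area opaca it passed 1 CPM in the non-neural ectoderm alone. SERPINB2, a protease inhibitor that blocks plasminogen activators, was 31.2-fold higher (23.0 to 43.0), at 16.2 against 0.519 CPM. It had no count in 5 of the other 6 libraries and 0.0851 CPM in the non-neural ectoderm.

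Some of the other genes at the top of the ranking were also high at HH6/7. The cell adhesion molecule CDH4 (R-cadherin) was 68.5-fold higher (48.3 to 99.99), at 23.9 against 0.349 CPM, and 61.9 CPM in the non-neural ectoderm. GREB1L was 63.9-fold higher (54.4 to 75.3), at 107 against 1.68 CPM, and between 401 and 745 CPM in the 4 HH6/7 libraries. ROBO2, a receptor for SLIT guidance proteins, was 30.6-fold higher (20.9 to 46.1), and CELF2, a splicing regulator, 26.2-fold higher (20.3 to 34.2). The membrane protein EMP2 was 58.8-fold higher (47.3 to 73.8) and AHNAK2 61.3-fold higher (43.1 to 89.6). The caudal-type homeobox gene CDXB was 40.2-fold higher (31.5 to 51.8), at 31.3 against 0.779 CPM, and 47.1 CPM in the non-neural ectoderm; the table lists identical counts under a second identifier, CDX4. EGR1, a zinc finger factor of the immediate early response, had another pattern. It was at 28.1 CPM in the ungrafted and 29.4 CPM in the node-grafted area opaca and between 0.401 and 1.11 CPM in the other 6 libraries, 46.8-fold higher (35.7 to 62.5) in this comparison.

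**Figure D3:**
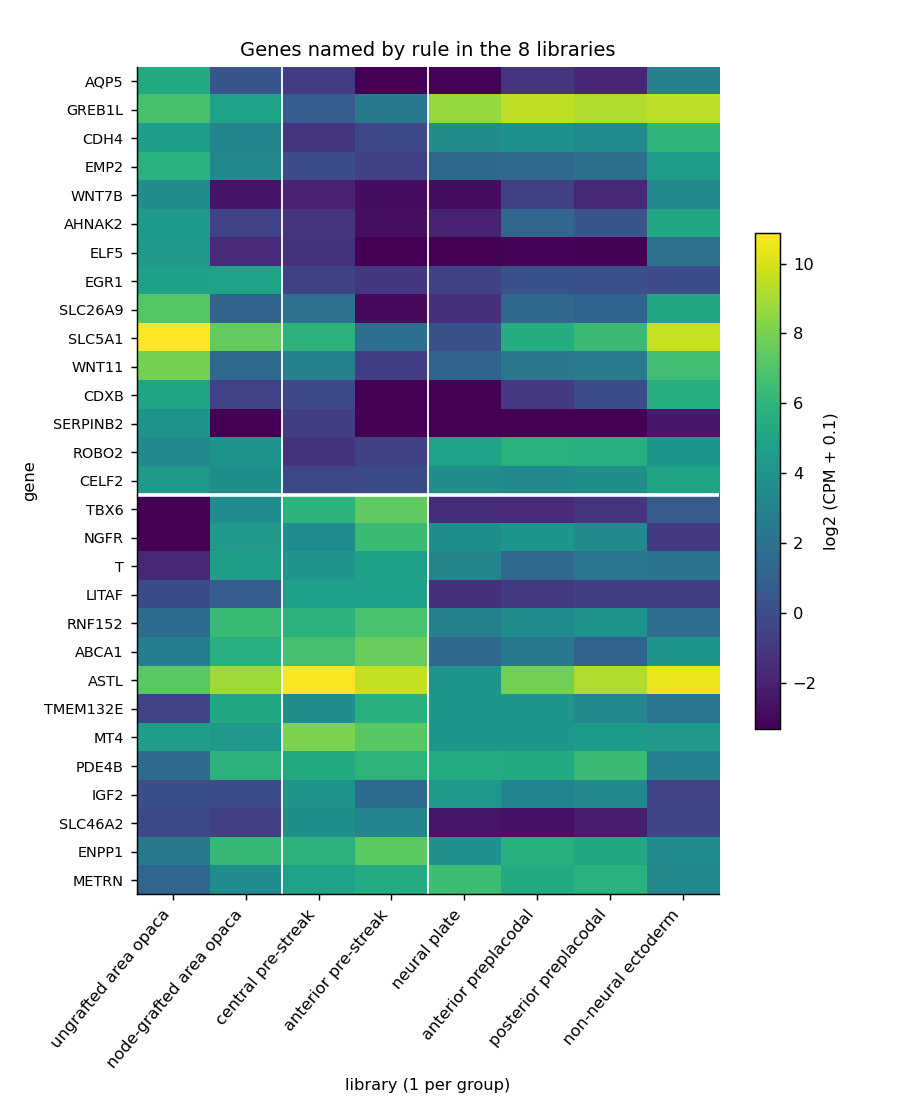
Rows are genes named by rule as highest (above the thick line) or lowest in the ungrafted area opaca, columns the 8 libraries, and colour the log2 of CPM plus 0.1. Most of the upper genes are bright in the ungrafted area opaca and the non-neural ectoderm, and EGR1 is bright in the 2 area opaca libraries alone.

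At the other end stood T-box genes of the streak, a neurotrophin receptor and several secreted factors. TBX6 (ENSGALG00000006374), a T-box factor of paraxial mesoderm, was at 0 CPM in the ungrafted and 11.9 CPM in the node-grafted area opaca, 59.2 CPM in the central and 174 CPM in the anterior pre-streak epiblast, 0.246 CPM in the neural plate, 0.218 and 0.339 CPM in the anterior and posterior preplacodal regions and 1.58 CPM in the non-neural ectoderm. With no ungrafted count against the floor of 3, it was at least 288-fold lower, and the pre-streak libraries were highest. The gene T (ENSGALG00000011489, Brachyury), the T-box factor of the primitive streak, was at 0.206 CPM in the ungrafted and 24.8 CPM in the node-grafted area opaca, 17.1 CPM in the central and 28.2 CPM in the anterior pre-streak epiblast, 8.61 CPM in the neural plate, 2.81 and 4.72 CPM in the anterior and posterior preplacodal regions and 4.41 CPM in the non-neural ectoderm. It was 83.2-fold lower (28.4 to 404) on 3 ungrafted counts, and each of the other 7 libraries was above the ungrafted area opaca. NGFR, the p75 neurotrophin receptor, had no ungrafted count against 12.2 CPM and was at least 59.1-fold lower.

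ASTL (ENSGALG00000008061), an astacin-like secreted metalloprotease, was at 152 CPM in the ungrafted and 469 CPM in the node-grafted area opaca, 1785 CPM in the central and 777 CPM in the anterior pre-streak epiblast, 17.8 CPM in the neural plate, 235 and 580.2 CPM in the anterior and posterior preplacodal regions and 1431 CPM in the non-neural ectoderm. It was 11.7-fold lower (11.3 to 12.3), and the ungrafted area opaca and the neural plate were its lowest libraries. ABCA1 (ENSGALG00000015433), the pump that exports cholesterol to apolipoproteins, was 16.5-fold lower (13.4 to 20.4), at 6.38 against 105 CPM. MT4, a metallothionein that binds metal ions, was 11.3-fold lower (10.2 to 12.6), at 23.7 against 268 CPM, with the other 5 libraries outside the anterior epiblast between 17.7 and 21.6 CPM. LITAF, a protein of late endosomes, was 31.1-fold lower (17.8 to 60.3), and the lysosomal ubiquitin ligase RNF152 18.0-fold lower (13.5 to 24.6). The growth factor IGF2 was 16.9-fold lower (10.1 to 31.1), at 0.961 against 16.3 CPM. Other genes of this group were TMEM132E (20.9-fold lower, 11 to 45.8), SLC46A2 (17.9-fold lower, 9.97 to 35.9), PDE4B (13.7-fold lower, 10.1 to 19.1), METRN (11.9-fold lower, 8.54 to 17.1) and ENPP1 (10.9-fold lower, 8.68 to 13.8).

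Genes were next grouped into 45 lists, 36 of names and 9 defined by a pattern in the symbol, and each was read against the shares over all members, 14.9% higher and 10.4% lower. A list median is the median log2 ratio of members at 1 CPM or more in either library, and 0.04 over all 11427 such genes. Genes without an ungrafted count enter medians at their bound.

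**Figure D4:**
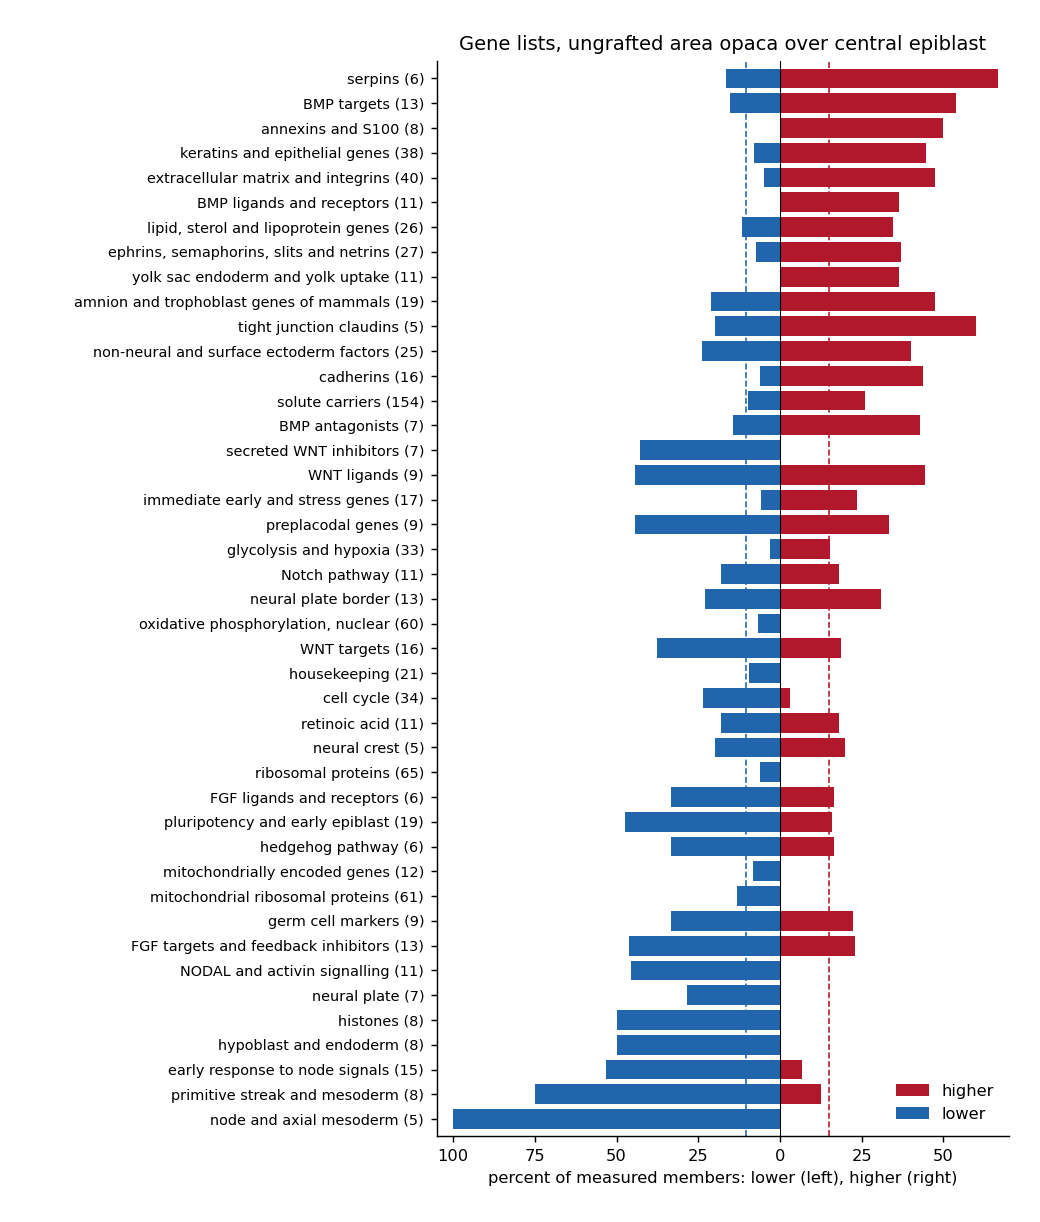
Bars give, for each list with 5 or more measured members (their number in brackets), the percent of members called higher (red, to the right) and lower (blue, to the left) in the ungrafted area opaca, ordered by list median; the dashed lines mark the percents over all members. Lists of serpins, BMP targets, epithelial and matrix genes lie at the top, and those of node, streak and early node response genes at the bottom.

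The early epiblast genes split. Of 19 measured members of the pluripotency and early epiblast list, 3 were called higher, 9 lower and 7 neither (median -0.36). NANOG, the homeobox factor of pluripotency, was at 1044 CPM in the ungrafted and 425 CPM in the node-grafted area opaca, 1114 CPM in the central and 1001 CPM in the anterior pre-streak epiblast, 35.3 CPM in the neural plate, 51.5 and 31.9 CPM in the anterior and posterior preplacodal regions and 106 CPM in the non-neural ectoderm. The area opaca level was 1.07-fold lower (1.05 to 1.09), which is not called, and the HH6/7 libraries were the lowest. POUV was at 1271 against 1966 CPM and SALL4 at 733 against 693 CPM, also not called. The de novo DNA methyltransferase DNMT3A was at 79.7 CPM in the ungrafted and 884 CPM in the node-grafted area opaca, 529.9 CPM in the central and 1433 CPM in the anterior pre-streak epiblast, 589 CPM in the neural plate, 643 and 697 CPM in the anterior and posterior preplacodal regions and 169 CPM in the non-neural ectoderm. It was 6.65-fold lower (6.27 to 7.05), and the ungrafted area opaca was the lowest of the 8 libraries. DNMT3B, its partner enzyme, was 3.20-fold lower (3.13 to 3.27), at 605 against 1935 CPM. PRDM14, a repressor of differentiation genes, was 4.38-fold lower (3.63 to 5.33), SOX3, an early neural and epiblast factor, 2.58-fold lower (2.38 to 2.81), and LIN28B, which blocks let-7 maturation, 2.29-fold lower (2.16 to 2.43). The TGF-beta ligand CVG1 (GDF3 in the current reference) was 6.62-fold lower (5.13 to 8.70) and the NODAL co-receptor CFC1 3.5-fold lower (3.22 to 3.81). The 3 higher genes were TFCP2L1, at 46.3 against 3.29 CPM (14.1-fold higher, 12.3 to 16.1), TBX3 (5.06-fold higher, 4.58 to 5.59) and TRIM71 (2.67-fold higher, 2.50 to 2.85).

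Genes that answer early to node signals were mostly lower. Such genes are listed because they respond to a node, so low levels without a graft are partly built into the choice of the list. In a list of 16 such genes 15 were measured, of which 1 was called higher, 8 lower and 6 neither (median -1.37). ENS-1 (ERNI), an early marker of the prospective neural epiblast, was at 141 CPM in the ungrafted and 3275 CPM in the node-grafted area opaca, 1448 CPM in the central and 3231 CPM in the anterior pre-streak epiblast, 59.8 CPM in the neural plate, 536 and 333 CPM in the anterior and posterior preplacodal regions and 276 CPM in the non-neural ectoderm. It was 10.3-fold lower (9.85 to 10.8), and only the neural plate was lower than the ungrafted area opaca. OTX2, the homeobox gene of forebrain and anterior epiblast, was 6.03-fold lower (4.47 to 8.32), at 3.02 against 18.2 CPM. MYCN was 5.08-fold lower (4.37 to 5.93), TRIM24 2.96-fold lower (2.79 to 3.14) and EYA2 3.51-fold lower (2.41 to 5.33). BERT was the higher one, at 5.42 against 2.58 CPM, and CHURC1, GMNN, SETD2, ZNF423, DEK and SALL4 were not called. Of 30 neural plate genes 7 were measured, 2 of them lower (OTX2 and MSI1) and 5 not called. SOX2 and SIX3 had no ungrafted count, against 0.140 and 0 CPM in the central epiblast. Both central levels are under the ungrafted floor of 0.206 CPM, so these genes show no difference.

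Genes of the primitive streak, mesoderm and node were at low levels in the ungrafted area opaca. Of 8 measured streak and mesoderm genes 6 were lower and 1 higher (median -2.52). Of 5 measured node and axial mesoderm genes 5 were lower, with a median of -2.17 over these 5. The list median of -3.96 is over 9 genes at 1 CPM or more in either library. Among them CHRD, NODAL, CHRDL1 and ADMP had 0, 1, 1 and 2 ungrafted counts. Besides TBX6 and T, EOMES, a T-box factor of streak and endoderm, was at 29.8 against 202 CPM (6.79-fold lower, 6.18 to 7.49) and 202 CPM in the node-grafted area opaca. WNT8C, a WNT of the streak, was 12.8-fold lower (6.20 to 32.1), the zinc finger repressor SNAI2 5.08-fold lower (3.56 to 7.51) and the PDGF receptor PDGFRA 4.78-fold lower (3.13 to 7.67). HAND1, a basic helix-loop-helix factor of extraembryonic and lateral mesoderm, was higher, at 7.75 against 1.73 CPM (4.49-fold higher, 3.51 to 5.72), and 80.8 CPM in the non-neural ectoderm. In the node list the homeobox gene GNOT1 was at 4.80 against 20.9 CPM (4.35-fold lower, 3.43 to 5.60), FOXA2 at 1.72 against 5.70 CPM, the WNT inhibitor DKK-1 at 1.65 against 7.41 CPM and LMX1B at 0.274 against 5.01 CPM. CHRD, the BMP antagonist of the node, had no ungrafted count against 3.52 CPM, under the minimum of the rule.

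Within NODAL and activin signalling, some cofactors and targets were lower and the receptors measured were not called. The ligand NODAL had 1 ungrafted count against 4.69 CPM, so that it is under the minimum. Of 11 measured genes 5 were lower and 0 higher (median -1.01), and the lower ones included CVG1, CFC1, EOMES and the convertase PCSK6 (2.98-fold lower, 2.57 to 3.47). The receptors ACVR1B, ACVR2A and ACVR2B and the effectors SMAD2 and SMAD3 were not called, at 25.9 against 31.2 CPM, 51.2 against 53.1 CPM, 19.1 against 9.59 CPM, 26.5 against 14.9 CPM and 15.2 against 19.3 CPM. For ACVR2B, the highest in ratio, the ratio lay just under 2.

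The transcription factors of non-neural ectoderm were not uniformly higher. Of 25 measured members of that list 10 were higher, 6 lower and 9 neither (median 0.40). GRHL3 (ENSGALG00000004249), a grainyhead factor of surface epithelia, was at 240.4 CPM in the ungrafted and 3.60 CPM in the node-grafted area opaca, 30.1 CPM in the central and 0.0702 CPM in the anterior pre-streak epiblast, 0.400 CPM in the neural plate, 12.8 and 32.2 CPM in the anterior and posterior preplacodal regions and 318 CPM in the non-neural ectoderm. It was 7.97-fold higher (7.59 to 8.37), with the ungrafted area opaca and the non-neural ectoderm far above the other libraries. GATA2 (ENSGALG00000005909), a zinc finger factor of non-neural ectoderm, was at 341 CPM in the ungrafted and 21.0 CPM in the node-grafted area opaca, 134 CPM in the central and 24.1 CPM in the anterior pre-streak epiblast, 3.26 CPM in the neural plate, 272 and 196 CPM in the anterior and posterior preplacodal regions and 660.0 CPM in the non-neural ectoderm. It was 2.55-fold higher (2.47 to 2.63), and the central epiblast was itself above the anterior epiblast, the neural plate and the node-grafted area opaca. TBX3, which in mammals acts in trophoblast and amnion, was at 47.0 against 9.29 CPM and 139 CPM in the non-neural ectoderm.

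Several standard markers of non-neural ectoderm and the neural plate border were at like levels in both tissues. TFAP2A, a factor of surface ectoderm and neural crest, was at 90.3 CPM in the ungrafted and 22.7 CPM in the node-grafted area opaca, 95.9 CPM in the central and 3.49 CPM in the anterior pre-streak epiblast, 39.5 CPM in the neural plate, 277 and 323 CPM in the anterior and posterior preplacodal regions and 178 CPM in the non-neural ectoderm. MSX1 was at 132 against 137 CPM, GRHL1 at 81.0 against 82.8 CPM and KLF5 at 349 against 265 CPM, and none was called. For TFAP2A the ratio was 1.06-fold lower (1.0 to 1.13) and for MSX1 1.04-fold lower (0.989 to 1.09). DLX5 was 2.42-fold higher (2.15 to 2.73), DLX3 5.06-fold higher (3.96 to 6.44), GRHL2 2.81-fold higher (2.65 to 2.97), ELF3 2.39-fold higher (1.99 to 2.86) and the TEAD cofactor VGLL1 3.20-fold higher (2.94 to 3.48). Genes on the lower side included TFAP2C (2.55-fold lower, 2.40 to 2.70), VGLL2 (8.03-fold lower, 6.63 to 9.81), TCF7L1 (4.57-fold lower, 3.85 to 5.47), a repressor of WNT targets, KLF4 (4.09-fold lower, 2.70 to 6.50) and the coactivator CITED2 (23.7-fold lower, 10.9 to 64.8). GATA3 was at 1.85 against 0.369 CPM, under the minimum. Of 13 measured neural plate border genes 4 were higher, 3 lower and 6 neither (median -0.06), with TFAP2E highest in ratio (28.0-fold higher, 18.5 to 43.6).

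BMP ligands, receptors and targets included several higher genes and few lower ones. The ligand BMP4 was at 42.7 against 41.6 CPM, with a ratio of 1.03-fold higher (0.943 to 1.12), and BMP7 at 509 against 294 CPM; neither was called. BMP2 was 2.86-fold higher (2.59 to 3.16), the receptors BMPR1A and BMPR2 2.50-fold higher (2.31 to 2.71) and 4.04-fold higher (3.64 to 4.48), and the effector SMAD5 2.17-fold higher (2.06 to 2.30). These were the 4 higher of 11 measured ligands, receptors and effectors, and 0 were lower (median 0.66). Over the 10 with a length the median was 0.66, and 0.47 centred on genes of like length. Of 7 measured antagonists BAMBI, a decoy receptor, was at 91.5 against 26.8 CPM (3.41-fold higher, 3.19 to 3.65), SOSTDC1 at 34.8 against 10.5 CPM and BMPER at 37.3 against 16.8 CPM, all higher, while NBL1 was 3.51-fold lower (2.88 to 4.31). Of 13 measured BMP targets 7 were higher, 2 lower and 4 neither (median 1.07). The inhibitors of basic helix-loop-helix factors ID2 and ID3 were not called, at 159 against 177 CPM and 40.3 against 28.0 CPM. ID1 was 5.99-fold lower (5.06 to 7.13), at 9.61 against 57.5 CPM, and lower in both area opaca libraries than in each of the other 6. The homeobox repressor VENTX was 5.18-fold lower (3.96 to 6.90) and the second lower target. The higher targets were GATA2, TBX3, DLX3, DLX5, HAND1, BAMBI and MSX2 (2.11-fold higher, 1.78 to 2.49), all of which also stand in other lists here.

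Some WNT ligands were higher and others lower. Of 9 measured ligands and potentiators, 4 were higher (WNT7B, WNT11, WNT4 and WNT16) and 4 lower (WNT5A, WNT5B, WNT8C and the potentiator RSPO3). WNT4 was at 22.0 against 4.75 CPM (4.63-fold higher, 4.01 to 5.35) and WNT16 at 11.7 against 4.76 CPM. WNT5B was at 24.4 against 98.6 CPM (4.05-fold lower, 3.64 to 4.51), WNT5A at 16.9 against 38.2 CPM and RSPO3 at 69.3 against 246 CPM (3.55-fold lower, 3.33 to 3.79). WNT3A was not called, at 17.3 against 10.5 CPM. Among 16 measured WNT targets 3 were higher, 6 lower and 7 neither (median -0.10). The feedback inhibitor AXIN2, a general target of the beta-catenin branch, was at 134 against 77.3 CPM and was not called. The stem cell receptor LGR5 was 3.99-fold higher (3.43 to 4.64), and NKD1, an inhibitor of the pathway, was 2.60-fold higher (2.30 to 2.94). CDXB, given above, was the other higher target. The lower targets were T, DACT1 (4.05-fold lower, 3.29 to 5.03), DACT2 (2.85-fold lower, 2.64 to 3.09), CCND1 (3.18-fold lower, 2.89 to 3.52), SP5 (4.2-fold lower, 2.67 to 7.04) and CDX2 (2.15-fold lower, 1.78 to 2.63). Secreted inhibitors were not higher in any of 7 measured cases, and SFRP1, SHISA2 and DKK-1 were lower.

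Targets of FGF signalling were lower in more cases than higher. Of 13 measured targets and feedback inhibitors 3 were higher, 6 lower and 4 neither (median -0.90). MKP3 (DUSP6), an ERK phosphatase induced by FGF, was at 0.686 CPM in the ungrafted and 114 CPM in the node-grafted area opaca, 7.15 CPM in the central and 67.6 CPM in the anterior pre-streak epiblast, 36.5 CPM in the neural plate, 11.3 and 24.4 CPM in the anterior and posterior preplacodal regions and 1.04 CPM in the non-neural ectoderm. It was 10.4-fold lower (5.63 to 21.8), and the non-neural ectoderm was the only other library under 2 CPM. The ETS factor ETV4 had 1 ungrafted count and was at 0.0686 against 9.55 CPM (139-fold lower, 24.9 to 5501), and ETV5 was at 20.2 against 63.4 CPM (3.15-fold lower, 2.80 to 3.55). DUSP4, a second ERK phosphatase, was 10.4-fold lower (7.22 to 15.6), and MYCN and CCND1, given elsewhere here, complete the lower members. The inhibitors SPRY1, SPRED1 and SPRED2 were not called, at 29.6 against 41.8 CPM, 9.4 against 11.7 CPM and 16.8 against 19.4 CPM, and IL17RD was 2.06-fold higher (1.76 to 2.40). EGR1 and FOS, which many stimuli switch on, were the other higher members, FOS at 7.89 against 3.47 CPM (2.27-fold higher, 1.82 to 2.81). Among the receptors FGFR3 was at 449.6 against 105 CPM (4.29-fold higher, 4.16 to 4.43), FGFR4 at 87.1 against 261 CPM (2.99-fold lower, 2.83 to 3.17), and FGFR1 and FGFR2 were not called, at 84.3 against 102 CPM and 55.0 against 75 CPM. FGF13, an intracellular relative of the FGF ligands, was 35.9-fold lower (12.3 to 175) on 3 ungrafted counts.

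Several keratins and desmosome genes were higher. Of 38 measured keratin and epithelial genes 17 were higher, where the share over all members was 14.9%, and 3 were lower and 18 neither (median 0.70). Over the 29 members with a length the median was 0.57, and 0.41 centred on genes of like length. KRT18, a keratin of simple epithelia, was at 216 CPM in the ungrafted and 85.2 CPM in the node-grafted area opaca, 34.7 CPM in the central and 18.2 CPM in the anterior pre-streak epiblast, 5.45 CPM in the neural plate, 62.4 and 48.4 CPM in the anterior and posterior preplacodal regions and 165 CPM in the non-neural ectoderm. It was 6.23-fold higher (5.93 to 6.53), with the non-neural ectoderm the next highest library. KRT19 was 2.09-fold higher (2.06 to 2.12) and KRT14 5.37-fold higher (4.36 to 6.62), while KRT8, the usual partner of KRT18, was not called at 451 against 407 CPM. The desmosome genes DSG2, DSP, PKP1 and PKP3 were, in this order, 8.08-fold higher (7.54 to 8.66), 3.09-fold higher (3.01 to 3.17), 3.42-fold higher (3.29 to 3.55) and 3.23-fold higher (2.90 to 3.60), and the tetraspan protein PERP, also of desmosomes, 9.23-fold higher (8.28 to 10.3). PKP2, a further desmosome gene, was not called, at 61.6 against 46.3 CPM. The bladder plaque protein UPK1B was at 197 against 47.3 CPM (4.17-fold higher, 3.98 to 4.36). Of 5 measured claudins, which are tight junction genes, 3 were higher, 1 lower and 1 neither. The higher ones were CLDN3, CLDN4 and CLDN12, at 57.8 against 15.2 CPM, 13.0 against 5.37 CPM and 25.6 against 10.9 CPM. CLDN1 was not called, and neither were the tight junction genes OCLN and TJP1. Gap junction genes went both ways, with GJB2 2.0-fold higher (1.73 to 2.31), GJA1 4.18-fold lower (3.73 to 4.69) and GJB1 4.64-fold lower (3.40 to 6.49).

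E-cadherin (CDH1) was not called, at 107 against 82.7 CPM, nor was N-cadherin (CDH2), at 12.5 against 10.2 CPM, or CDH3, at 642 against 1238 CPM. Of 16 measured cadherins 7 were higher, 1 lower and 8 neither (median 0.38). All 16 had a length, with a median of 4796 bp. Over them the median log2 ratio was 0.55, and 0.39 centred on genes of like length. Besides CDH4, CDH13, a cadherin anchored by lipid, was at 61.3 against 3.94 CPM (15.5-fold higher, 13.8 to 17.5) and CDH7 at 8.44 against 1.31 CPM. The planar polarity cadherin CELSR1 was 2.93-fold higher (2.82 to 3.06) and the giant cadherins FAT1 and FAT3 2.02-fold higher (1.95 to 2.09) and 6.22-fold higher (5.27 to 7.34).

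Matrix genes were higher in 19 of 40 measured cases, lower in 2 and neither in 19 (median 0.70). The 36 members with a length had a median of 5023 bp, and over them the median log2 ratio was 1.02, and 0.70 centred on genes of like length. FN1 (ENSGALG00000003578), fibronectin, a matrix protein on which cells migrate, was at 2619 CPM in the ungrafted and 1515 CPM in the node-grafted area opaca, 304 CPM in the central and 461 CPM in the anterior pre-streak epiblast, 1125 CPM in the neural plate, 6375 and 4713 CPM in the anterior and posterior preplacodal regions and 5699 CPM in the non-neural ectoderm. It was 8.62-fold higher (8.50 to 8.76), and the preplacodal and non-neural libraries were higher still. The basement membrane collagens COL4A1 and COL4A2 were 7.48-fold higher (7.25 to 7.71) and 7.77-fold higher (7.52 to 8.03), NID1, which joins collagen and laminin networks, 4.41-fold higher (4.15 to 4.67), and LAMA1 2.21-fold higher (2.17 to 2.25). COL9A1 and COL14A1, collagens attached to fibrils, were 14.6-fold higher (13.3 to 16.1) and 15.1-fold higher (13.0 to 17.5), and the microfibril gene FBN2 8.10-fold higher (7.74 to 8.47). THBS1 was at 472 against 159 CPM and the hyaluronan synthase HAS2 at 306 against 128 CPM, both higher. The laminin chains LAMB1, LAMC1 and LAMA5, the collagens COL4A5 and COL4A6 and the integrin ITGB1 were not called. The lower members were ITGB3 (2.77-fold lower, 2.36 to 3.26) and FBLN2 (2.42-fold lower, 2.17 to 2.71).

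Solute carriers, which move sugars, amino acids and ions across membranes, were called higher more often than lower. Of 154 measured solute carriers 40 were higher, where the share over all members was 14.9%, and 15 were lower and 99 neither (median 0.37, and over the 143 with a length 0.29, or 0.24 centred on genes of like length). SLC1A3, a glutamate transporter, was at 737 CPM in the ungrafted and 104 CPM in the node-grafted area opaca, 54.1 CPM in the central and 3.53 CPM in the anterior pre-streak epiblast, 0.228 CPM in the neural plate, 29.2 and 59.3 CPM in the anterior and posterior preplacodal regions and 123 CPM in the non-neural ectoderm. It was 13.6-fold higher (13.2 to 14.1), and the ungrafted area opaca was the highest library. The nucleoside transporter SLC28A3 was at 825 against 254 CPM (3.25-fold higher, 3.18 to 3.32), the aromatic amino acid transporter SLC16A10 at 779 against 274 CPM (2.84-fold higher, 2.78 to 2.90) and the sodium-proton exchanger SLC9A3 at 27.4 against 2.26 CPM (12.2-fold higher, 10.3 to 14.4). The glucose transporter SLC2A1 was 3.68-fold higher (3.57 to 3.79), while SLC2A3 was not called at 423 against 590.1 CPM. The chloride cotransporters SLC12A2, SLC12A3, SLC12A4 and SLC12A7 were, in this order, 2.39-fold higher (2.29 to 2.49), 2.46-fold higher (2.35 to 2.56), 2.19-fold higher (2.13 to 2.26) and 2.47-fold higher (2.34 to 2.61). Lower members included the nucleoside transporters SLC29A1 (2.92-fold lower, 2.73 to 3.12) and SLC29A4 (5.83-fold lower, 3.92 to 9.05) and the folate carrier SLC19A1 (2.10-fold lower, 1.99 to 2.21).

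Some receptors for yolk uptake were among the higher genes too. Of 11 measured genes of yolk sac endoderm and yolk uptake 4 were higher, 0 lower and 7 neither (median 0.57). Over the 10 with a length the median was 0.46, and 0.28 centred on genes of like length. LRP2 (megalin), an endocytic receptor for lipoproteins and vitamins, was at 565 against 177 CPM (3.20-fold higher, 3.12 to 3.28). VLDL, the name under which the table holds the very low density lipoprotein receptor, was at 139 against 57.8 CPM (2.40-fold higher, 2.28 to 2.53), and the endocytic adaptor DAB2 at 10.1 against 4.15 CPM (2.43-fold higher, 2.0 to 2.94). The retinol and thyroid hormone carrier TTR was at 7.55 against 0.0499 CPM (151-fold higher, 62.9 to 475) and 34.3 CPM in the non-neural ectoderm. The lipoprotein APOA1 and the retinol carrier RBP4 were not called, at 20.7 against 13.6 CPM and 31.6 against 58.8 CPM, and APOB was under the minimum, at 2.33 against 0.170 CPM. CUBN and AMN, of the same list, were also under the minimum, at 0.892 against 0.320 CPM and 0.549 against 0.200 CPM.

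Most of the measured genes of cholesterol synthesis were higher. Of 26 measured genes of lipid and sterol metabolism 9 were higher, 3 lower and 14 neither (median 0.60, and over the 23 with a length 0.67, or 0.89 centred on genes of like length). HMGCS1, an early enzyme of the pathway, was at 173 CPM in the ungrafted and 231 CPM in the node-grafted area opaca, 55.8 CPM in the central and 70.1 CPM in the anterior pre-streak epiblast, 161 CPM in the neural plate, 133 and 155 CPM in the anterior and posterior preplacodal regions and 110.1 CPM in the non-neural ectoderm. It was 3.10-fold higher (2.96 to 3.25), and both pre-streak libraries were below the other 6. SQLE was 2.89-fold higher (2.73 to 3.05), FDPS 3.14-fold higher (2.97 to 3.32), FDFT1 3.25-fold higher (3.09 to 3.42) and DHCR7 4.27-fold higher (3.97 to 4.59), all enzymes of the same pathway. The sterol sensor partner INSIG1 was 3.90-fold higher (3.51 to 4.33), whereas LSS, a later enzyme, was not called at 112 against 148 CPM. The fatty acid synthesis genes FASN, ACACA and SCD were not called, and CPT1A, which brings fatty acids into mitochondria, was 5.07-fold higher (4.67 to 5.50). ABCA1, described above, FADS1 (3.05-fold lower, 2.64 to 3.55) and FABP7 (2.21-fold lower, 1.97 to 2.48) were the lower members.

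Among 33 measured genes of glycolysis and hypoxia 5 were higher, 1 lower and 27 neither, with a median of 0.02 whose sign turned with other library scalings. NDRG1, a hypoxia-responsive gene, was at 568 against 101 CPM (5.61-fold higher, 5.45 to 5.77) and the peptide hormone ADM at 31.9 against 6.13 CPM (5.20-fold higher, 4.60 to 5.88). GAPDH, ENO1, PGK1 and LDHB were not called, at ratios from 1.18-fold lower (1.17 to 1.20) to 1.12-fold higher (1.11 to 1.13).

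The retinoic acid synthesising enzymes went opposite ways. ALDH1A1 was at 5.90 against 0.00999 CPM, the latter on 1 count (591-fold higher, 103 to 23610.4), and the receptor RARB at 26.1 against 2.64 CPM (9.89-fold higher, 8.43 to 11.6). ALDH1A2, another such enzyme, was 2.22-fold lower (1.8 to 2.78), and CYP26B1, which degrades retinoic acid, 45.5-fold lower (15.5 to 221) on 3 ungrafted counts. Of 11 measured genes 2 were higher, 2 lower and 7 neither. Of 11 measured Notch genes 2 were higher, 2 lower and 7 neither; the ligand JAG2 was at 135 against 10.3 CPM (13.1-fold higher, 12.1 to 14.1), and the receptors NOTCH1 and NOTCH2 were not called. LFNG, which modifies NOTCH, was 8.11-fold lower (4.50 to 16.3), and the target HEY1 4.19-fold lower (3.24 to 5.50). Of 6 measured hedgehog genes 2 were lower, among them the co-receptor CDON (7.71-fold lower, 5.28 to 11.7), GLI2 was higher (3.20-fold higher, 2.43 to 4.19), and PTCH1 was not called, at 23.9 against 24.8 CPM.

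Guidance molecules were higher in 10 of 27 measured cases, lower in 2 and neither in 15 (median 0.60). Over the 26 with a length the median was 0.622, and 0.525 centred on genes of like length. The secreted semaphorins SEMA3C and SEMA3A were at 29.0 against 2.02 CPM (14.4-fold higher, 12.1 to 17.1) and 103 against 28.2 CPM (3.66-fold higher, 3.44 to 3.90), and the secreted ROBO ligand SLIT3 at 85.6 against 18.2 CPM (4.70-fold higher, 4.37 to 5.05). SLIT2, of the same family, was lower, at 7.75 against 20.1 CPM, as was SEMA3F, at 41.2 against 91.2 CPM. The ephrins EFNB1 and EFNB2 were not called, at 35.6 against 35.4 CPM and 151 against 98.7 CPM.

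In the cell cycle list most measured genes were not called, and lower members outnumbered higher ones. Not every lower or mitotic member is named here. Of 34 measured genes 1 was higher, 8 lower and 25 neither (median -0.17). CDC6, which loads the replicative helicase, was at 17.0 CPM in the ungrafted and 14.9 CPM in the node-grafted area opaca, 69.2 CPM in the central and 66.4 CPM in the anterior pre-streak epiblast, 54.3 CPM in the neural plate, 38.0 and 48.0 CPM in the anterior and posterior preplacodal regions and 21.9 CPM in the non-neural ectoderm. It was 4.07-fold lower (3.58 to 4.63), and both area opaca libraries and the non-neural ectoderm were the lowest. CDT1, its partner in loading, was 3.20-fold lower (3.01 to 3.41), the helicase subunits MCM2 and MCM3 2.05-fold lower (1.98 to 2.12) and 2.50-fold lower (2.39 to 2.61), and E2F1, which drives S phase genes, 2.14-fold lower (1.88 to 2.45). MCM4, MCM5 and MCM6, subunits of the same helicase, and the replication clamp PCNA were not called, at 165 against 264 CPM, 197 against 383 CPM, 283 against 324 CPM and 367 against 362 CPM. The mitotic genes CDK1, CCNB2, PLK1, BUB1 and AURKA and the proliferation marker MKI67 were not called, at 523 against 747 CPM, 427 against 639.9 CPM, 356 against 389.7 CPM, 287 against 225 CPM, 167 against 150.4 CPM and 377 against 223 CPM. CIP1, the table's name for the kinase inhibitor CDKN1A, was the higher member, at 10.4 against 4.47 CPM.

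In the lists of ribosomal, mitochondrial, housekeeping and histone genes no member was called higher. Several of these lists hold short genes. Median lengths were 711 bp for ribosomal proteins, 910 bp for mitochondrial ribosomal proteins, 904 bp for oxidative phosphorylation and 447 bp for the mitochondrial genome. In the 2 shortest length classes 6.45% and 9.45% of genes were called higher, and 25.4% and 17.5% lower. Of 65 ribosomal protein genes 4 were lower (median -0.31; the centred value is given above). RPS28 was at 39.8 against 342 CPM (8.6-fold lower, 7.92 to 9.35), and RPLP1, RPS26 and RPS15 were the other lower members. Of 61 mitochondrial ribosomal protein genes 8 were lower and 0 higher (median -0.47, and over the 59 with a length -0.46, or -0.26 centred on genes of like length), and of 60 nuclear genes of oxidative phosphorylation 4 were lower and 0 higher (median -0.10; the centred value is given above). Of 21 housekeeping genes 2 were lower, PPIA and B2M, and ACTB and GAPDH were at 4442 against 4517 CPM and 4108 against 3679 CPM. Of 8 measured histone genes 4 were lower and 0 higher. The median was -1.18 over 14 genes at 1 CPM, and -0.09 over the 5 at 5 CPM with a length. Of 12 genes of the mitochondrial genome 1 was lower and 11 were not called. Of 17 measured immediate early and stress genes 4 were higher, 1 lower and 12 neither. The chaperones of the endoplasmic reticulum HSP90B1 and HSPA5 were at 2618 against 805 CPM (3.25-fold higher, 3.21 to 3.29) and 1498 against 500.4 CPM (2.99-fold higher, 2.95 to 3.04), while the cytosolic HSPA8, HSPH1 and HSP90AA1 were not called.

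Lists of later ectoderm derivatives and of extraembryonic genes gave mixed counts. Of 19 measured genes known from mammalian amnion and trophoblast 9 were higher, 4 lower and 6 neither (median 0.56), with ELF5, HAND1 and TBX3 among the higher and TFAP2C among the lower. Of 9 measured preplacodal genes 3 were higher and 4 lower, of 5 neural crest genes 1 was higher and 1 lower, and of 4 caudal and HOX genes 1 was higher and 2 lower. Of 6 measured serpins 4 were higher and 1 lower (median 1.47), among them SERPINH1, a collagen chaperone, at 142 against 51.2 CPM (2.77-fold higher, 2.63 to 2.91). Of 8 annexins and S100 genes 4 were higher and 0 lower (median 0.80), with ANXA2, which binds membranes in the presence of calcium, at 431 against 105 CPM (4.10-fold higher, 3.97 to 4.23).

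Markers of cells that a dissection could include were counted in both libraries. The 6 markers of area opaca and non-neural ectoderm summed to 830 CPM in the ungrafted area opaca and 407 CPM in the central epiblast, and to between 39.0 and 1401 CPM in the other 6. The 5 epiblast markers summed to 2472 and 3304 CPM. Of 7 hypoblast and endoderm markers, summing to 23.9 and 31.0 CPM, SOX17 and CER1 had no ungrafted count. The 6 yolk endoderm markers summed to 63.6 and 73.1 CPM, and RBP4 alone made the central sum the larger. The levels of TTR, APOA1, APOB, CUBN and AMN, given above, were each higher in the ungrafted area opaca. Of these, APOB, CUBN and AMN were under the minimum of the rule and APOA1 was not called. The 6 blood and endothelium markers summed to 1.72 and 4.18 CPM, with CDH5 at 0 in the ungrafted area opaca. The 6 mesoderm markers summed to 10.1 and 88.9 CPM, with MIXL1, TBX6 and TWIST1 at 0 in the ungrafted area opaca. MIXL1 was at 0 in the central epiblast as well. The 5 node markers summed to 1.92 and 11 CPM, with CHRD, SHH and GSC at 0 in the ungrafted area opaca. In the 3 germ cell markers the sums were 50.2 and 17.0 CPM, with PIWIL1 at 47.1 against 8.63 CPM. DAZL was at 1.24 against 5.56 CPM and DDX4 at 1.85 against 2.81 CPM, so that PIWIL1 alone made the ungrafted sum the larger. The 4 neural plate markers summed to 0.755 and 0.889 CPM, with SOX2, LHX2 and SIX3 at 0 in the ungrafted area opaca and LHX2 and SIX3 at 0 in the central epiblast as well. Central levels of SOX17 (0.140 CPM), CER1 (0.0399), CDH5 (0.0999), TWIST1 (0.0799), SHH (0.120) and SOX2 (0.140) were under the ungrafted floor of 0.206 CPM. For these genes 0 ungrafted counts show no difference. The part of other cell types in the differences was not tested.

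The called genes were then read in libraries that the comparison did not use. Among the anterior epiblast and the 4 HH6/7 libraries, the non-neural ectoderm had the highest level for 1054 of the 1411 higher genes (74.7%), against 32.4% of all members. For the 985 lower genes it was the anterior epiblast in 545 cases (55.3%), against 25.3% of all members, and the non-neural ectoderm in 45. Over the central epiblast, the median log2 ratio of the higher genes was 1.48 in the non-neural ectoderm, 0.51 in the neural plate and -0.27 in the anterior epiblast; these ratios share the central library with the rule.

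A second pair, the non-neural ectoderm against the neural plate, shares no library with the first, though its libraries came from different laboratories. By the same rule 1332 of 10206 genes (13.1%) were higher in the non-neural ectoderm and 937 (9.18%) lower. Genes higher in both pairs numbered 630, which is 44.6% of those higher in the ungrafted area opaca and 47.3% of those higher in the non-neural ectoderm. Genes lower in both numbered 245, which is 24.9% and 26.1% of the lists. Only 21 genes were higher in the first pair and lower in the second, and 48 the reverse. Across the 9255 genes measured in both pairs, Pearson's r of the log2 ratios was 0.536 and Spearman's rho 0.542; genes are not independent replicates, and this ratio also went with gene length, from -0.25 to 0.15 over the length classes. Genes higher in both included SLC5A1, WNT11, WNT7B, AQP5, GRHL3, GATA2, TBX3 and CDXB, and genes lower in both NGFR, DNMT3A, PRDM14, OTX2, MKP3 and ETV4. ASTL was among the reverse cases, lower in the area opaca and at 1431 against 17.8 CPM in the non-neural ectoderm and neural plate.

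**Figure D5:**
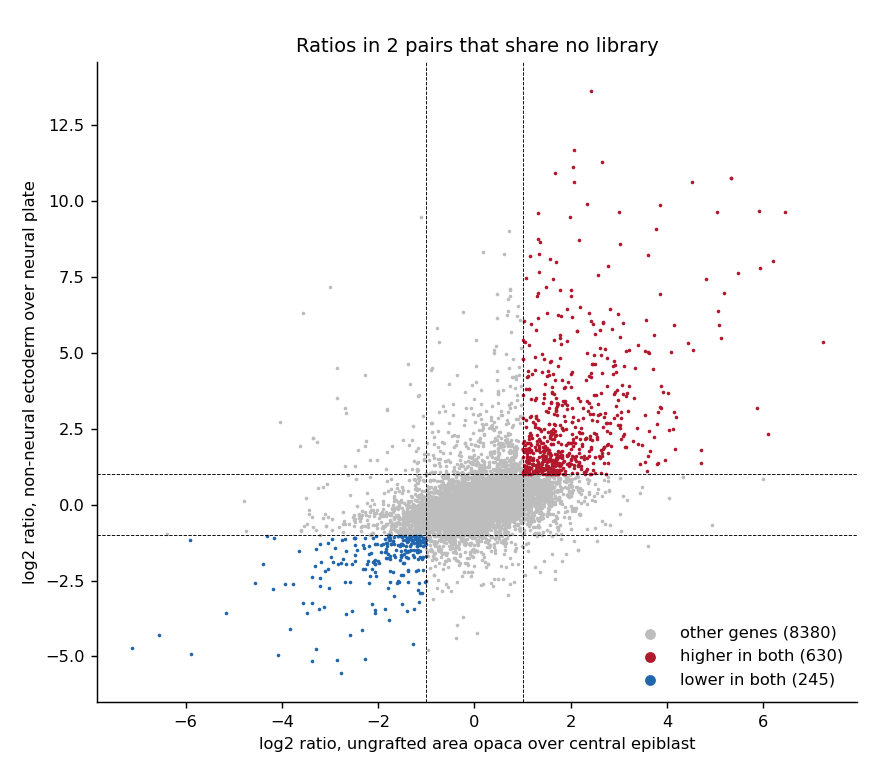
Each point is 1 of 9255 genes, with the log2 ratio of ungrafted area opaca over central epiblast on the horizontal and of non-neural ectoderm over neural plate on the vertical axis; dashed lines mark a ratio of 2, red points the 630 genes higher in both pairs and blue points the 245 lower in both. The upper right holds more points than the upper left or the lower right.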

How the data were processed

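The authors deposited 1 table of raw read counts per gene for 8 libraries and tables of FPKM (fragments scaled to transcript length and library size). Per the labels' protocols, RNA was extracted with RNAqueous-Micro, libraries were made with TruSeq RNA V2 and sequenced on an Illumina instrument. TopHat2 and the galGal4 build are named in the submitters' processing notes. The counting program, the annotation and the use of strand were not given in the labels or file headers used here, so antisense and overlapping genes were not separated.

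From the deposited counts, CPM was the count per 1000000 counts of the column, and genes with 5 CPM in either library were kept. A call needed a ratio of 2 and was made on the counts as they stood. A count of 0 was replaced by 3 counts in log2 ratios and fold changes, not in calls. The 95% intervals are exact (Clopper-Pearson) and cover counting error only, since reads are not independent molecules. Names were given to the 15 genes on each side whose interval bound nearest to 1 was largest, among genes with a symbol that reached 10 CPM, and to list members; some of these genes are not reported here. With 1 library per group no test was run. The deposited FPKM values served an alternative and the gene lengths. Among the FPKM values, 8 of 8 columns of genes with Ensembl identifiers fitted their own count column best and 0 of 7 columns of genes with RefSeq accessions did. The latter FPKM values were not used, and which side of the mismatch is at fault was not tested. The counts of genes with RefSeq accessions were kept. Ensembl identifiers alone gave 1385 genes higher and 956 lower of 9304.

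The comparison, its 36 lists of names and 9 lists by symbol pattern were chosen with earlier results of these data known. Some aliases and patterns were corrected, and near-identical entries of 1 gene counted once, after values were seen. Of 834 genes in the lists of names 749 were matched, 737 by name or alias, 2 by RefSeq accession and 11 by a synonym in RefSeq's GRCg7b table, 1 of them in more than 1 way. Among all genes 148 pairs had like counts in every library and may share reads. The calculations, tested on simulated counts, used Python 3.11.15, pandas 2.3.3, numpy 2.4.6, scipy 1.17.1, matplotlib 3.10.9 and R 4.3.3, with edgeR 4.0.16 (TMM factors) and DESeq2 1.42.0 (size factors) for scaling alternatives only.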

Additional observations from a re-analysis of the deposited data

How the results depend on the processing

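With 1 library per group no replicate could be left out. No paired analysis was possible because each group has 1 library. Against 1411 genes higher and 985 lower, other scalings gave 1333 to 1417 higher and 1070 to 1151 lower, and moved the median log2 ratio of all genes by at most 0.06. A minimum of 1 CPM gave 1799 higher and 1554 lower, a minimum of 20 CPM 913 and 565, and a ratio of 4 gave 353 and 237. With no minimum beyond 3 counts in the higher library 2144 were higher and 3158 lower, so that 40.4% of calls were higher against 58.9%. That setting admits genes with few or no counts in the shallow area opaca library. Calls did not use the floor, so a gene at 0 there could be called lower. An interval bound reaching 2 gave 1155 and 691. Ratios centred on genes of like length, an alternative chosen after seeing the data, gave 1077 and 866 over the 8990 genes with a length. Those same genes gave 1234 and 906 without centring. With the anterior in place of the central epiblast 1865 were higher and 1527 lower. Deposited FPKM, over 9254 genes, gave 957 and 944 at a pseudocount of 1, and 1220 and 1099 at a pseudocount of 0.1. Of the 630 genes higher in both pairs 178 reached a ratio of 4; the 245 lower in both became 439 at 1 CPM, 43 at a ratio of 4 and 457 with the anterior epiblast. In these cases the cause was not tested. Of 405 list medians over the alternatives 36 had another sign than the main value, 8 of them with the anterior epiblast and 9 with length-centred ratios. Where the main median was 1 or more in size, 4 lists changed sign. For caudal and HOX genes it went from -1.52 to 2.54 with the anterior epiblast. The medians of neural plate genes, -1.15, and of blood and endothelium, -1.22, were already 0.23 and 0.08 over the members at 5 CPM with a length, before any centring, and 0.13 and 0.25 once centred. For histones it was -1.18, -0.09 and 0.36 in the same order. The members at 5 CPM with a length were also chosen after seeing the data. Motifs in promoters of called genes, a planned item, were not run. Depth limits genes under 1 CPM in the area opaca most, where a count of 0 allows up to 0.206 CPM.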

Other observations

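Some genes set the 2 area opaca libraries, ungrafted and node-grafted, apart from the 6 others. Among genes higher in the ungrafted area opaca, 9 were at 2 times or more of each of the 6 other libraries in both. Besides EGR1 and FOS they included MYL3, a myosin light chain, at 596 and 294 CPM in the ungrafted and node-grafted area opaca against 78.0 CPM in the central epiblast. CALD1 (caldesmon), which binds actin and myosin, was at 295, 70.8 and 29.2 CPM in the same order, and the ectoenzyme ENPP3 at 397, 582 and 133 CPM. DIO2, which activates thyroid hormone, was at 23.9, 8.89 and 2.36 CPM.

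Among genes lower in the ungrafted area opaca, 124 were at or under 0.5 times the level of each of the 6 other libraries in both area opaca libraries. Their median length was 849 bp over the 116 with a length, against 2257 bp over all measured genes. They included ID1, KLF4, SP5, SNAI2 and LMX1B, whose differences from the central epiblast are given above, and the ribosomal protein gene RPS28. The 2 area opaca libraries were also the ones with the fewest counts. The part of gene length and depth in these genes was not tested, and no replicate of either library was analysed here.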
